A study of Rattus norvegicus with 12 samples.

Results

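The unfolded protein response and the integrated stress response were described here through 31 genes. They were chosen by symbol as ER chaperones, protein disulfide isomerases, ER stress sensors, the transcription factors below them, targets of ATF4 and CHOP, and genes of ER-associated degradation. All 31 symbols matched a row of the deposited count table, out of 30045 rows, and all 31 were among the 17330 genes with enough counts to be tested. Theca-interstitial cells surround the ovarian follicle and make androgens, and those used here came from wild type female Sprague Dawley rats on post-natal day 30. They were cultured on human fibronectin in McCoys 5A medium and received vehicle (control), rat interleukin-1β (IL-1β), or lipopolysaccharide (LPS, a cell wall component of Gram-negative bacteria) for 48 h. The labels give 1 µg/ml after LPS and do not say whether it also holds for IL-1β. Each group held 4 libraries of polyadenylated RNA. Nothing in the labels ties a library to its own animal or isolation, so the p-values rest on the spread between these libraries alone, which may be technical.

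Proteins that enter the secretory pathway fold in the endoplasmic reticulum (ER), helped by chaperones and by enzymes that form disulfide bonds. When unfolded protein builds up, the membrane sensors IRE1, PERK and ATF6 lose the chaperone BiP and start the unfolded protein response. IRE1 splices the mRNA of XBP1, ATF6 is cut to release a transcription factor, and PERK phosphorylates the initiation factor eIF2, which slows translation while that of ATF4 goes up. Other eIF2 kinases, which sense lack of amino acids, haem or viral RNA, lead to ATF4 as well, so that branch is called the integrated stress response. Steroid-making cells hold a large smooth ER, where some of the enzymes of steroid synthesis sit.

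Total counts ran from 20873934 to 32090924 per library, and counts of the 31 genes from 129 (a low count for Trib3) to 44434 (Calr). Levels are given as counts per 1000000 of the scaled library total (CPM), which are comparable between libraries for 1 gene but not between genes, since transcript length was not taken into account. Fold changes are on the log2 scale, the value after ± is the SE of a log2 fold change, and each group has 4 libraries. Calls rest on edgeR's quasi-likelihood test with the adjusted p, taken over all 17330 genes, below 0.05.

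Most of these transcripts were lower with either stimulus, by small amounts. With IL-1β, 24 of 31 fell, 1 rose and 6 did not pass the threshold, and with LPS 22 fell, 2 rose and 7 did not pass. Over all genes tested, 23% were lower and 24.7% higher with IL-1β, and 20% were lower and 22.5% higher with LPS. The median log2 fold change of the 31 genes was -0.19 with IL-1β and -0.19 with LPS, beside 0.01 and 0.01 over all genes tested. In 24 members every IL-1β library lay below every control library and in 0 above, against 21.4% and 22.8% of all genes (44.2% in either direction). In 21 members every LPS library lay below every control and in 0 above, against 18.2% and 20.1% (38.3% in either direction). Both comparisons use the same 4 control libraries, so they are not independent of each other. The share of all counts taken by the 31 genes was 0.896% ± 0.0233 (SD, n = 4) in controls, 0.815% ± 0.0101 with IL-1β and 0.808% ± 0.0240 with LPS, and no treated library reached the range of the controls (0.864% to 0.919%).

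Of the 25 genes called with IL-1β, 12 differed by at least 1.2-fold, 4 by at least 1.5-fold and 1, Ddit3, by at least 2-fold. Over all genes tested, 8261 were called with IL-1β, of which 4782, 2303 and 1075 passed these 3 sizes. With LPS 24 were called, 12 of them at 1.2-fold or more, 3 at 1.5-fold or more and 0 at 2-fold. Of the 7358 genes called with LPS over all tested, 4026, 1876 and 785 did. The median absolute log2 fold change of the genes called was 0.26 among the members and 0.32 among all genes with IL-1β, and 0.26 and 0.29 with LPS. The number lower was 23 or 24 with IL-1β and 21 to 24 with LPS whichever 1 of the 12 libraries was left out. With library size alone as the scaling the numbers lower were 23 and 21. Under that scaling 64.1% of the calls over all genes were higher with IL-1β, against 51.7% with TMM, and 63.4% with LPS, against 53.0%. Between LPS and IL-1β the share was 45.7%, against 51.7%.

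**Figure D1:**
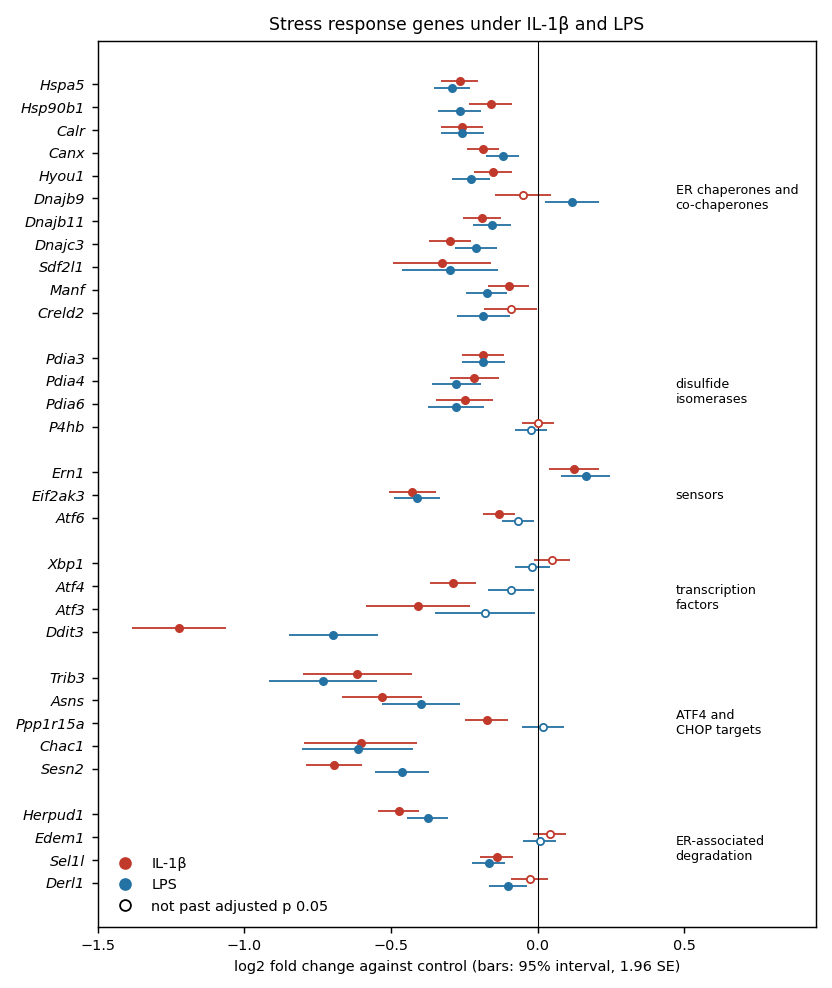
Log2 fold change of each of the 31 genes against control, on the horizontal axis, with IL-1β in red and LPS in blue. Bars are 95% intervals, filled points passed an adjusted p of 0.05, and genes are grouped by role. Most points lie left of 0, and Ddit3 with IL-1β lies furthest, at -1.22.

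The ER chaperones fell together. Of 11 chaperones and co-chaperones, 9 fell with IL-1β and 10 with LPS, with medians of -0.19 and -0.21. Hspa5 encodes BiP, the main Hsp70 of the ER lumen, and its level is a widely used readout of ER stress. It stood at 988, 1065, 1055 and 1080.4 CPM in the control libraries, at 882, 908, 856 and 838 with IL-1β and at 817, 855, 856 and 891 with LPS. Neither treated group overlapped the controls, and the 2 treated groups overlapped each other. Hspa5 fell by 16.8% with IL-1β (-0.27 ± 0.03, adjusted p = 6.54e-08) and fell by 18.4% with LPS (-0.29 ± 0.03, adjusted p = 1.38e-08). Hsp90b1 (GRP94), the Hsp90 of the ER, fell as well (-0.16 ± 0.04 with IL-1β, -0.27 ± 0.04 with LPS). So did Hyou1 (GRP170), which exchanges nucleotides on BiP (-0.15 ± 0.03 and -0.23 ± 0.03).

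The lectin chaperones Calr and Canx, which hold newly made glycoproteins, were lower in every treated library than in every control. Calr went from 1295, 1429, 1328 and 1463 CPM in controls to 1135, 1164, 1137 and 1175 with IL-1β and 1095, 1138, 1149 and 1233 with LPS (-0.26 ± 0.04 and -0.26 ± 0.04). Canx changed by -0.19 ± 0.03 and -0.12 ± 0.03. Among the J-proteins that feed clients to BiP, Dnajb11 fell with both (-0.19 ± 0.03 and -0.16 ± 0.03). Dnajc3, which also inhibits PERK, fell with IL-1β (-0.30 ± 0.04) and with LPS (-0.21 ± 0.04). Between the stimuli Dnajc3 differed by 0.09 ± 0.04 (adjusted p = 0.0878), which passed when LPS replicate 1 was left out (0.12).

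Smaller ER proteins went the same way. Sdf2l1, a partner of Dnajb11, fell by 20.3% with IL-1β and fell by 18.8% with LPS, though with wide errors (-0.33 ± 0.08 and -0.30 ± 0.08) and 1 LPS library inside the control range. Creld2, which is induced by ER stress, fell with LPS (-0.19 ± 0.05) and stood at -0.09 ± 0.05 with IL-1β (adjusted p = 0.102). Manf, a small secreted protein that binds BiP, fell with LPS (-0.17 ± 0.04). Its fall with IL-1β (-0.10 ± 0.04, adjusted p = 0.0224) was not called without Control replicate 2 (-0.09), Control replicate 4 (-0.07), IL-1β replicate 1 (-0.09) or IL-1β replicate 3 (-0.09), nor with library size alone (-0.05).

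Dnajb9 (ERdj4) was the 1 chaperone that rose. This J-protein is induced through XBP1 and holds IRE1 in check. Its libraries read 28.3, 29.2, 27.96 and 26.3 CPM in controls, 27.5, 27.4, 27.4 and 25.6 with IL-1β and 28.6, 30.7, 31.1 and 30.8 with LPS. The highest control library lay inside the LPS range, so those groups overlapped. Dnajb9 rose with LPS by 0.12 ± 0.05 (adjusted p = 0.0471), a call lost in 15 of 21 alternatives (adjusted p from 0.0078 to 0.18). Among these were the fits without Control replicate 1, 3 or 4, without any 1 of the IL-1β replicates, and without LPS replicate 2, 3 or 4 (from 0.09 to 0.12). With IL-1β it stood at -0.05 ± 0.05 (adjusted p = 0.419).

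Protein disulfide isomerases make and rearrange disulfide bonds in the ER. Of 4, 3 fell with each stimulus and P4hb did not pass with either. Pdia3 (ERp57), which works with calreticulin and calnexin, changed by -0.19 ± 0.04 and -0.19 ± 0.04. Pdia4 (ERp72) went from 277, 308, 285 and 307 CPM in controls to 249, 262, 245 and 257 with IL-1β and 226, 240.1, 242 and 263 with LPS (-0.22 ± 0.04 and -0.28 ± 0.04). No treated library reached the lowest control in Pdia4. Pdia6 (P5) changed by -0.25 ± 0.05 and -0.28 ± 0.05. P4hb is the founding isomerase, and its protein also serves as a subunit of the prolyl 4-hydroxylase that modifies collagen. It stood at 994, 1039, 1029 and 1044 CPM in controls, 1041, 1023, 1013 and 1027 with IL-1β and 973, 989, 1045 and 1036 with LPS, and the 3 groups overlapped. The approximate 95% interval of its log2 fold change was -0.05 to 0.05 with IL-1β and -0.08 to 0.03 with LPS. Both intervals lie above the log2 fold changes of the other 3 isomerases.

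**Figure D2:**
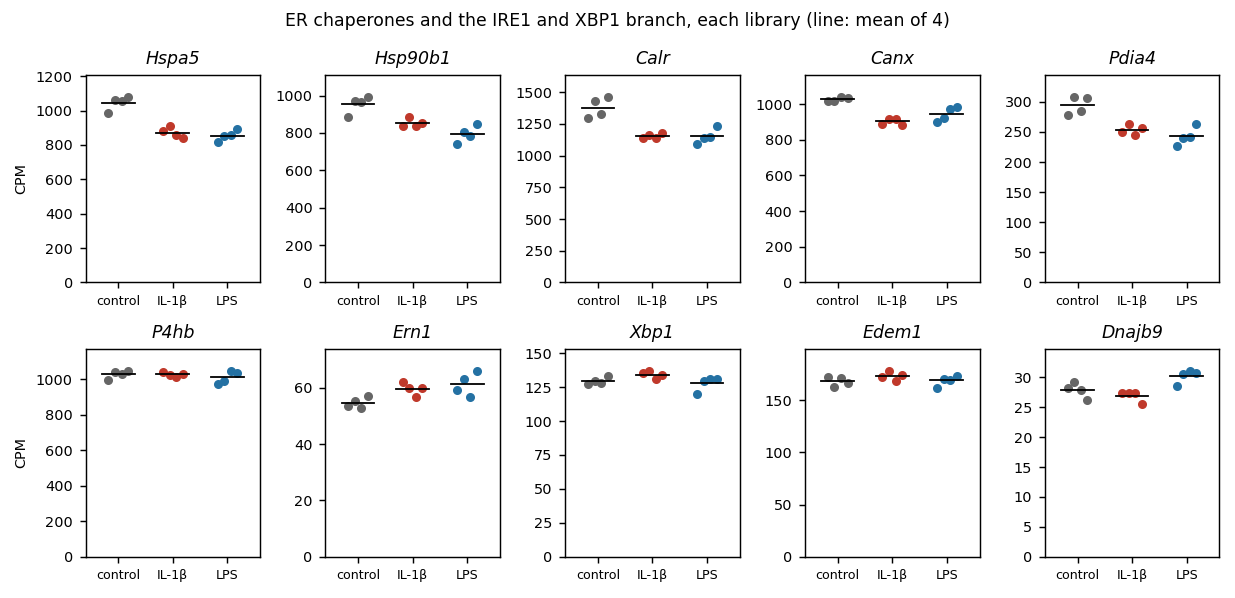
CPM of ER chaperones, isomerases and genes of the IRE1 and XBP1 branch in each of the 12 libraries, 1 panel a gene with its own axis from 0, and the line at the mean of 4 libraries. Hspa5, Hsp90b1, Calr, Canx and Pdia4 lie below all controls in both treated groups, while P4hb, Xbp1 and Edem1 overlap them.

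Chaperone genes are known to share promoter elements, so the promoters are shown here for members that moved together and for 1 that did not. The ER stress response element (ERSE, the letters CCAAT and CCACG with any 9 bases between them) is bound by ATF6 or XBP1 together with NF-Y, ERSE-II (ATTGG and CCACG with any 1 base between) is a compact form of it, and the unfolded protein response element (UPRE, TGACGTGG) is bound by XBP1 and ATF6. The C/EBP-ATF response element (CARE, TGATGNAA) is bound by ATF4 and CHOP with their partners. Each was searched on both strands in RefSeq promoters of 300 bases on build GRCr8, from 250 before to 50 after the transcription start. Of the 31 members 24 had an entry in the promoter table, Hyou1 with 2 overlapping ones. ERSE stood in the promoters of 7 of these 24 members (29.2%) and in 22 of all 33469 promoters (0.0657%). ERSE-II was found in 3 of 24 (12.5%), against 17 of 33469 (0.0508%), and ERSE or ERSE-II in 10 of 24 members and 39 of all promoters. UPRE was in 1 of 24, Hyou1, where it overlapped an ERSE-II match, and in 0.595% of all promoters. CARE was in 3 of 24 (12.5%; Chac1, Herpud1 and Trib3), against 3.98% of all, and its longer form TGATGCAAT in 0 of 24, against 0.188%. A match says only that these letters are present, and no match says only that they are not in this window. The members were chosen as genes of this response, whose chaperones are known to share such elements. These shares therefore say nothing about the stimuli.

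The promoters of Hspa5, Xbp1, Herpud1 and Chac1 are given with these matches in capitals and the unspecified bases in lower case, each 5′ to 3′ in the direction of the gene.
Hspa5, GRCr8 chr3:38452766-38453065, plus strand, 1 ERSE: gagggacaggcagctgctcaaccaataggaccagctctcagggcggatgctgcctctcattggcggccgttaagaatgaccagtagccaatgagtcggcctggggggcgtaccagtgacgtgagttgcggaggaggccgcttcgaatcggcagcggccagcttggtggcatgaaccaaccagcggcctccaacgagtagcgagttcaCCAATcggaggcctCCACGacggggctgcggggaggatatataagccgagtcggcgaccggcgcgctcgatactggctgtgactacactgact
Xbp1, GRCr8 chr14:84604373-84604672, plus strand, 1 ERSE: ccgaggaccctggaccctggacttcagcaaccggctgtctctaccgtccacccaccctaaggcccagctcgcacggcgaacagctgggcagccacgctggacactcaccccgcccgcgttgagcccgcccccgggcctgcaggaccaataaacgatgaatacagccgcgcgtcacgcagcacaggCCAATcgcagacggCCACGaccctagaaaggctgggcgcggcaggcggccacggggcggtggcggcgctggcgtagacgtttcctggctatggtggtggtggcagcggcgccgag
Herpud1, GRCr8 chr19:10614658-10614957, minus strand, 1 CARE and 1 ERSE-II: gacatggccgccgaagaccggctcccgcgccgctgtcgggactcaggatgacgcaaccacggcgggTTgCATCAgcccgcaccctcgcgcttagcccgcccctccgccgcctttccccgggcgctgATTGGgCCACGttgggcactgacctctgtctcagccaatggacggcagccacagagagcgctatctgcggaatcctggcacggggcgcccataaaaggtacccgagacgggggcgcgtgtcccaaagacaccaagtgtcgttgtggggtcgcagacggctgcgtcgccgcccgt
Chac1, GRCr8 chr3:126795881-126796180, plus strand, 1 CARE: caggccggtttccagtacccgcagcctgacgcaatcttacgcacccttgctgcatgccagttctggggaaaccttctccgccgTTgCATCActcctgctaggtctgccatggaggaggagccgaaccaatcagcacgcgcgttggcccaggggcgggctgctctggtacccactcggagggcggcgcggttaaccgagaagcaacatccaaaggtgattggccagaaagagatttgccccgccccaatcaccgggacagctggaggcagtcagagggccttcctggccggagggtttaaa
The ERSE of Hspa5 began 43 bases before the start and that of Xbp1 65 bases before it.

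ERSE sites of further chaperone promoters differed in the bases between their fixed ends, as these show.
Hsp90b1, 176 bases before the start: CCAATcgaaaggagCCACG
Hsp90b1, 72 bases before, on the other strand: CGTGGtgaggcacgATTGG
Calr, 232 bases before, on the other strand: CGTGGtcgaccctgATTGG
Canx, 230 bases before: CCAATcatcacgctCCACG
Dnajc3, 133 bases before: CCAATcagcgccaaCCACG
Creld2, 145 bases before, on the other strand: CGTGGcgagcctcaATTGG
The 10 members with ERSE or ERSE-II were Hspa5, Hsp90b1, Calr, Canx, Hyou1, Dnajb11, Dnajc3, Creld2, Herpud1 and Xbp1. With IL-1β all but Creld2 and Xbp1 fell, and with LPS all but Xbp1 fell. Members with a promoter entry and neither motif mostly fell too. With IL-1β all of these but Dnajb9, P4hb and Edem1 fell, and with LPS all but those 3, Atf4 and Ppp1r15a. Over all genes tested 23% were lower with IL-1β and 20% with LPS. Whether the motifs go with the falls was not tested.

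**Figure D3:**
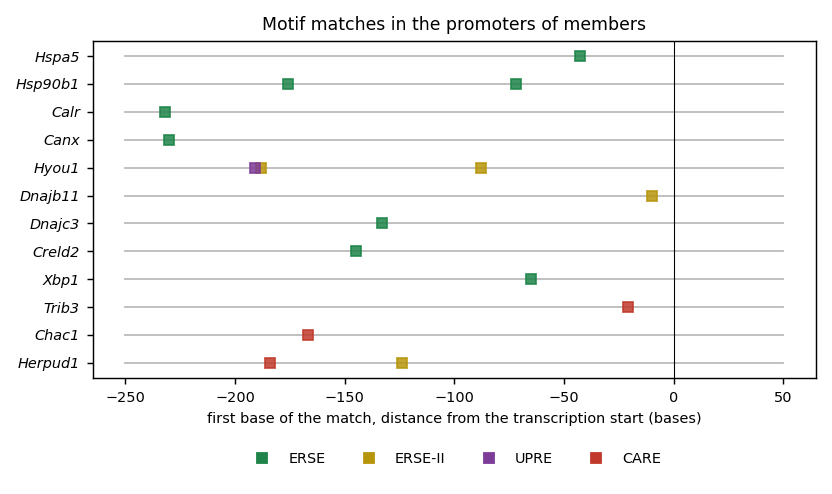
Position of each motif match in the promoters of the 12 members with at least 1 match, as the distance in bases of its first base from the transcription start (0). ERSE is green, ERSE-II yellow, UPRE purple and CARE red, and Hsp90b1 and Hyou1 carry more than 1 ERSE or ERSE-II.

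Among the 3 sensors, the PERK gene fell and the IRE1 gene rose. Eif2ak3, which encodes PERK, read 40.9, 43.8, 42.6 and 40.7 CPM in controls, 30.8, 30.8, 30.8 and 32.4 with IL-1β and 31.5, 31.2, 31.9 and 31.5 with LPS. The treated groups were tight and lay far below the lowest control. It fell by 25.6% with IL-1β (-0.43 ± 0.04, adjusted p = 9.46e-10) and fell by 24.8% with LPS (-0.41 ± 0.04, adjusted p = 1.98e-09). Ern1, which encodes IRE1α, read 53.6, 55.5, 52.8 and 57.1 CPM in controls, 62.2, 59.9, 56.8 and 60.1 with IL-1β and 59.4, 63.1, 56.9 and 65.99 with LPS. Its highest control library reached the lowest treated ones, so the groups overlapped. Ern1 rose with IL-1β (0.12 ± 0.04, adjusted p = 0.0187) and with LPS (0.16 ± 0.04, adjusted p = 0.00255). The call with IL-1β was lost without Control replicate 1 (0.11), Control replicate 3 (0.11) or IL-1β replicate 1 (0.10), and that with LPS held in all 21 alternatives.

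Atf6, the gene of the third sensor, fell with IL-1β (-0.13 ± 0.03, adjusted p = 0.000276). With LPS it stood at -0.07 ± 0.03, just short of the threshold (adjusted p = 0.0539), although every LPS library lay below the lowest control, 1 of them barely. It passed without Control replicate 4 (-0.08), IL-1β replicate 4 (-0.07) or LPS replicate 4 (-0.08), and with DESeq2 size factors, upper-quartile factors, a stricter filter or DESeq2's own test (from -0.07 to -0.08).

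Xbp1, the transcription factor below IRE1, did not pass with either stimulus. Its libraries read 127, 129.7, 128 and 133 CPM in controls, 135, 137, 131 and 134 with IL-1β and 120.1, 129.8, 131 and 131 with LPS, and the groups overlapped. Its log2 fold change was 0.05 ± 0.03 with IL-1β (approximate 95% interval -0.01 to 0.11) and -0.02 ± 0.03 with LPS (-0.08 to 0.04). With library size alone the value with IL-1β was 0.10 and passed the threshold. The table has 1 row for the gene, so spliced and unspliced Xbp1 were not told apart, and neither phosphorylation nor cleavage of the sensors was measured.

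Among the 31 genes, the largest log2 fold changes with either stimulus were in the ATF4 and CHOP branch. Ddit3 encodes CHOP, a transcription factor that rises late in unresolved stress. It read 37.9, 31.9, 36.2 and 37.9 CPM in controls, 18.01, 13.95, 15.1 and 14.5 with IL-1β and 22.6, 19.7, 25.1 and 21.6 with LPS, and none of the 3 groups overlapped. The level was 2.33-fold lower with IL-1β (-1.22 ± 0.08, adjusted p = 6.93e-10) and 1.62-fold lower with LPS (-0.70 ± 0.08, adjusted p = 7.86e-07). LPS cultures held 1.44 times the level of IL-1β cultures (0.53 ± 0.09, adjusted p = 0.000274).

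Atf4, the transcription factor at the centre of the integrated stress response, read 342, 332, 363 and 329 CPM in controls, 288, 277, 289 and 264 with IL-1β and 314, 306, 349 and 313 with LPS. All IL-1β libraries lay below the controls, while LPS replicate 3 stood among them. Atf4 fell by 18.2% with IL-1β (-0.29 ± 0.04, adjusted p = 5.69e-06). With LPS it stood at -0.09 ± 0.04 (adjusted p = 0.0746). That value passed without LPS replicate 3 (-0.13), without IL-1β replicate 4 (-0.09), with upper-quartile factors (-0.10) and with no low-count filter (-0.09). It also passed with replicate number in the model. Atf4 was higher with LPS than with IL-1β (0.20 ± 0.04, adjusted p = 0.00148). Atf4 is controlled mostly through its translation, which counts of transcripts do not show. Atf3, a stress-induced relative, fell with IL-1β (-0.41 ± 0.09, adjusted p = 0.000646) and stood at -0.18 ± 0.09 with LPS (adjusted p = 0.103). The LPS value passed without LPS replicate 3 (-0.25), with no low-count filter (-0.18) and with replicate number in the model.

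Of 5 targets of ATF4 and CHOP, 5 fell with IL-1β and 4 with LPS, with medians of -0.60 and -0.46. Sesn2, a sestrin that restrains the growth kinase complex mTORC1, read 45.2, 43.1, 46.9 and 42.5 CPM in controls, 29.1, 25.9, 27.5 and 26.9 with IL-1β and 33.9, 31.1, 33.6 and 30.3 with LPS. The groups did not overlap and LPS lay between the others. Sesn2 fell by 38.2% with IL-1β (-0.69 ± 0.05, adjusted p = 1.26e-12) and fell by 27.4% with LPS (-0.46 ± 0.05, adjusted p = 3.67e-09). Asns, which makes asparagine, read 79.8, 75.9, 82.9 and 74.5 CPM in controls, 58.3, 51.03, 56.4 and 50.4 with IL-1β and 62.7, 53.8, 66.3 and 55.1 with LPS (-0.53 ± 0.07 and -0.40 ± 0.07). The treated groups overlapped each other but not the controls.

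Trib3 and Chac1 fell with both stimuli. Trib3, a pseudokinase that dampens ATF4 and CHOP, read 10.7, 9.48, 10.4 and 9.09 CPM in controls, 6.95, 5.45, 6.95 and 6.45 with IL-1β and 6.14, 5.98, 6.78 and 5.00 with LPS (-0.61 ± 0.09 and -0.73 ± 0.09). Chac1, which breaks down glutathione and carries the CARE printed above, read 20.3, 19.1, 23.7 and 20.3 CPM in controls, 14.8, 12.3, 14.6 and 12.8 with IL-1β and 16.1, 12.2, 14.7 and 11.5 with LPS (-0.60 ± 0.10 and -0.61 ± 0.10). In both genes no treated library reached the controls. The interval of the difference between LPS and IL-1β was -0.32 to 0.08 for Trib3 and -0.21 to 0.19 for Chac1.

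Ppp1r15a (GADD34) directs the phosphatase that reverses eIF2 phosphorylation and so ends the response. It read 76.5, 78.1, 79.4 and 72.3 CPM in controls, 65.9, 66.8, 68.4 and 69.98 with IL-1β and 74.6, 75.3, 82.3 and 77.4 with LPS. IL-1β libraries lay below all others, and LPS libraries overlapped the controls. Ppp1r15a fell with IL-1β (-0.17 ± 0.04, adjusted p = 0.000296), stood at 0.02 ± 0.04 with LPS (adjusted p = 0.741) and was higher with LPS than with IL-1β (0.19 ± 0.04, adjusted p = 0.000378).

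**Figure D4:**
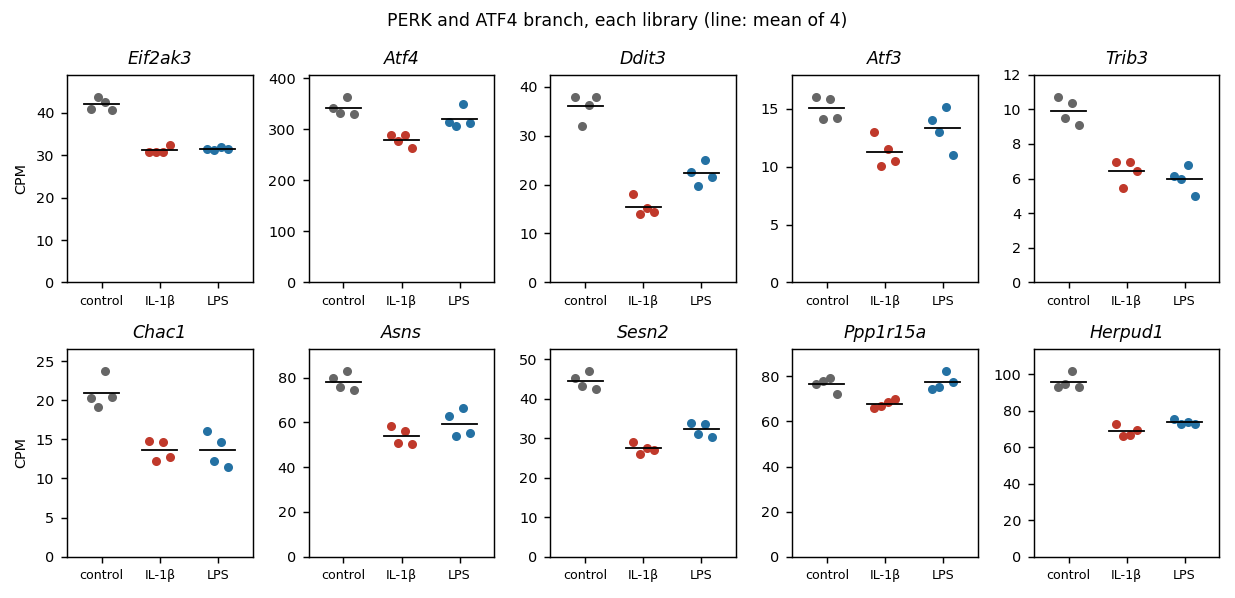
CPM of genes of the PERK and ATF4 branch and of Herpud1 in each of the 12 libraries, 1 panel a gene with its own axis from 0, and the line at the mean of 4 libraries. IL-1β libraries lie below all controls in every panel, and LPS libraries lie between the groups in Ddit3 and Sesn2 and among the controls in Ppp1r15a.

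Genes of ER-associated degradation, which sends misfolded proteins to the proteasome, fell in 2 of 4 with IL-1β and in 3 of 4 with LPS. Herpud1, a membrane protein of the degradation complex that is strongly induced by ER stress, read 93.2, 94.7, 102 and 92.99 CPM in controls, 72.96, 66.04, 66.8 and 69.3 with IL-1β and 75.3, 72.9, 73.9 and 72.6 with LPS. Both treated groups lay far below the controls. Herpud1 fell by 27.99% with IL-1β (-0.47 ± 0.04, adjusted p = 7.5e-12) and fell by 22.9% with LPS (-0.37 ± 0.04, adjusted p = 8.82e-10). Sel1l, which scaffolds the ubiquitin ligase Hrd1, fell as well (-0.14 ± 0.03 and -0.17 ± 0.03). Edem1, which hands misfolded glycoproteins over for degradation and is a target of XBP1, did not pass with either stimulus (0.04 ± 0.03 and 0.01 ± 0.03). With library size alone the Edem1 value with IL-1β was 0.09 and passed as higher. Derl1, a channel component, fell with LPS (-0.10 ± 0.03, adjusted p = 0.0127) and stood at -0.03 ± 0.03 with IL-1β. The call with LPS was lost without LPS replicate 2 (-0.08) and with library size alone (-0.06).

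LPS was set against IL-1β directly to ask where the 2 stimuli differed, as a contrast of the treated libraries in the same model. Of the 31 genes 5 were higher with LPS, 1 was lower and 25 did not pass, against 11.3% higher and 10.6% lower over all genes tested. In either direction 6 of 31 were called, near the 21.9% of all genes. The 5 were Ddit3, Sesn2 (0.23 ± 0.05, adjusted p = 0.00117), Atf4, Ppp1r15a and Dnajb9 (0.17 ± 0.05, adjusted p = 0.012). All but Dnajb9 belong to the ATF4 and CHOP branch. Trib3 (-0.12), Chac1 (-0.01), Asns (0.13) and Atf3 (0.23, adjusted p = 0.0786) of that branch were not called. In the 5 genes called higher and in Atf6 every LPS library was above every IL-1β library, against 11.1% of all genes (21.6% in either direction). In 0 members every LPS library was below. The call of Dnajb9 was lost without IL-1β replicate 4 (0.14). Hsp90b1 was lower with LPS (-0.11 ± 0.04, adjusted p = 0.0441), with overlapping groups. That call was lost in 9 of 21 alternatives, without Control replicate 2 or 3, any 1 of the IL-1β replicates, or LPS replicate 1, 2 or 3 (from -0.12 to -0.07).

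Several other differences between the stimuli passed only in some alternatives. Asns (0.13 ± 0.07, adjusted p = 0.207) passed with no low-count filter (0.14), as did Herpud1 and Atf3. Herpud1 (0.10 ± 0.04, adjusted p = 0.0523) was called without Control replicate 3 (0.10) or IL-1β replicate 1 (0.13). Atf3 (0.23 ± 0.09, adjusted p = 0.0786) was called without IL-1β replicate 1 (0.31) or LPS replicate 4 (0.31). Canx (0.07) passed without LPS replicate 1 (0.09), Hyou1 (-0.07) without LPS replicate 4 (-0.10) and Derl1 (-0.07) without LPS replicate 3 (-0.10). For Hspa5 the interval of the difference was -0.09 to 0.04 and for Calr -0.07 to 0.07.

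Further genes of these pathways were counted in 8 lists of 168 genes, of which 166 matched a row and 161 were tested. Each list is to be read beside all genes tested. Of those, 23% were lower and 24.7% higher with IL-1β, and 20% lower and 22.5% higher with LPS. Their median log2 fold change was 0.01 with either stimulus. Other folding and redox enzymes of the ER were mostly lower, with 17 of 27 lower and 1 higher with each stimulus (medians -0.16 with IL-1β and -0.15 with LPS). The number higher with LPS was 2 without LPS replicate 4. Fkbp9 (-0.32 ± 0.03 and -0.29 ± 0.03), Fkbp10 (-0.14 ± 0.03 and -0.27 ± 0.03) and Fkbp14 (-0.36 ± 0.06 and -0.49 ± 0.06), prolyl isomerases of the ER, fell. So did the cargo receptors Tmed2 (-0.28 and -0.19) and Tmed10 (-0.24 and -0.20). The oxidase gene Ero1l (Ero1a), which recharges the isomerases, rose with IL-1β (0.23 ± 0.05) and stood at 0.11 ± 0.05 with LPS (adjusted p = 0.0655).

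Translocation and N-glycosylation genes of the ER fell in 17 of 28 with each stimulus and rose in 1. Over all genes tested 23% fell and 24.7% rose with IL-1β, and 20% fell and 22.5% rose with LPS. The number higher with LPS was 0 without Control replicate 2, 3 or 4 or LPS replicate 2 or 3. Rpn2 (-0.31 ± 0.03 and -0.30 ± 0.03), Stt3a (-0.25 ± 0.03 and -0.23 ± 0.03) and Ostc (-0.35 ± 0.04 and -0.30 ± 0.04), all of the oligosaccharyltransferase, were the 3 with the smallest p in both comparisons. Other degradation genes went both ways, with 8 of 21 lower and 5 higher with IL-1β, and 9 lower and 2 higher with LPS. The 5 higher with IL-1β were near the 24.7% of all genes. The number higher with IL-1β was 3 without Control replicate 4 or IL-1β replicate 1 or 2, the number higher with LPS was 1 without LPS replicate 2, and the number lower with LPS was 4 with library size alone. Derl3, a relative of Derl1, rose with IL-1β (0.22 ± 0.07) and fell with LPS (-0.27 ± 0.07), and the direct difference was -0.49 ± 0.07 (adjusted p = 6.93e-06). The ligase gene Syvn1 (Hrd1) fell with LPS (-0.13 ± 0.04) and stood at -0.05 ± 0.04 with IL-1β. Vimp (-0.26 and -0.20), Edem3 (-0.16 and -0.09) and the mannosidase Man1b1 (-0.13 and -0.13) fell with both, and the conjugating enzyme Ube2j1 fell with IL-1β (-0.20).

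ATF4 targets of amino acid metabolism and transport fell in 13 of 18 with IL-1β and 11 of 18 with LPS. They rose in 1 and 0 (medians -0.38 and -0.25). Among all genes tested 23% fell with IL-1β and 20% with LPS, and 24.7% and 22.5% rose. Phgdh, the entry enzyme of serine synthesis, fell from 77.3 ± 1.16 to 48.3 ± 2.72 CPM with IL-1β (SD, n = 4; -0.68 ± 0.05) and to 54.3 ± 4.49 with LPS (-0.51 ± 0.05). The glycine transporter gene Slc6a9 (-0.81 ± 0.05 and -0.47 ± 0.05) and Aldh18a1 of proline synthesis (-0.51 ± 0.03 and -0.39 ± 0.03) fell. Psat1, also of serine synthesis, fell with IL-1β (-0.27 ± 0.09) and stood at -0.21 ± 0.09 with LPS (adjusted p = 0.0583). The cystine transporter gene Slc7a11 varied widely and did not pass with either (-0.26 ± 0.26 and 0.24 ± 0.25).

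Cytosolic aminoacyl-tRNA synthetases, which charge tRNAs and include many ATF4 targets, were mostly higher with LPS than with IL-1β. With IL-1β 15 of 20 fell and 2 rose (median -0.26), and with LPS 8 fell and 3 rose (median -0.06). All genes tested fell in 23% with IL-1β and 20% with LPS, and rose in 24.7% and 22.5%. Set against IL-1β directly, 17 of 20 were higher with LPS and 1 was lower (median 0.17, beside 0.00 over all genes tested), where 11.3% of all genes were higher. Over the 21 alternatives 16 or 17 were higher. Cars (-0.44 ± 0.04 and -0.21 ± 0.04 against control, 0.22 ± 0.04 between stimuli), Eprs (-0.33 ± 0.03, -0.21 ± 0.03 and 0.12 ± 0.03) and Gars (-0.34 ± 0.03, -0.20 ± 0.03 and 0.14 ± 0.03) fell with both and were higher with LPS than with IL-1β. Dars rose with both (0.22 ± 0.03 and 0.24 ± 0.03).

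**Figure D5:**
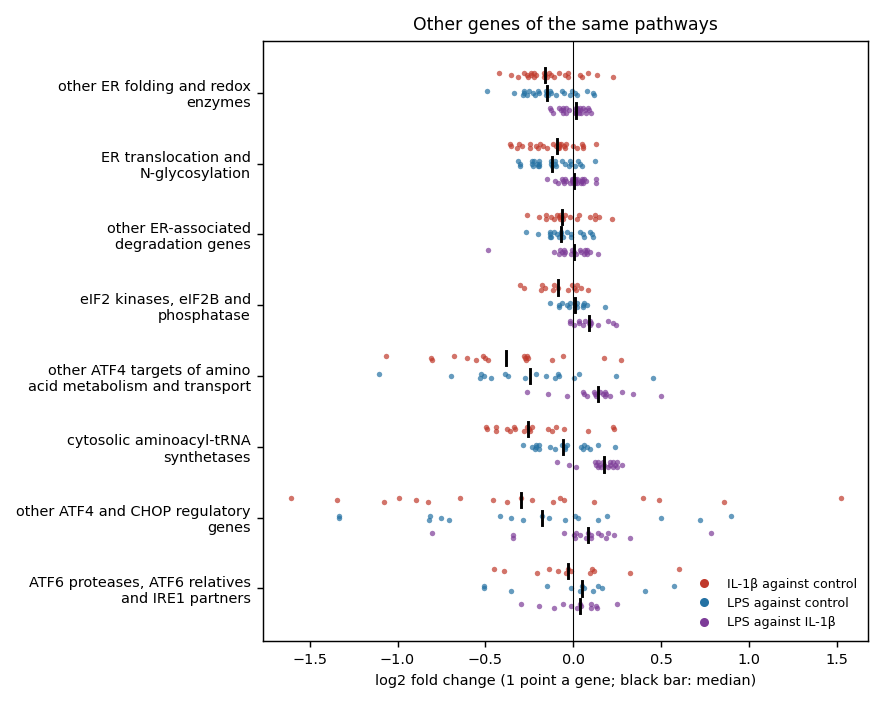
Log2 fold change of each gene in the 8 further lists (1 point a gene, horizontal axis), for IL-1β against control in red, LPS against control in blue and LPS against IL-1β in purple, with the median as a black bar. The purple points of the aminoacyl-tRNA synthetases lie mostly right of 0, with a median of 0.17.

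Regulators around ATF4 and CHOP held larger changes in both directions. With IL-1β 12 of 19 fell and 5 rose, and with LPS 11 fell and 4 rose. The shares over all genes were 23% lower and 24.7% higher with IL-1β, and 20% lower and 22.5% higher with LPS. Nupr1, a small stress-induced chromatin protein, fell from 677 ± 5.48 to 321 ± 12.5 CPM with IL-1β (SD, n = 4; -1.07 ± 0.03) and to 401 ± 13.9 with LPS (-0.75 ± 0.03), a difference between stimuli of 0.32 ± 0.03 (adjusted p = 7.31e-09). Atf5, a relative of ATF4 that is regulated in a similar way, fell (-0.89 ± 0.04 and -0.71 ± 0.04), as did Vldlr, a lipoprotein receptor gene (-1.34 ± 0.03 and -1.33 ± 0.03). Against this direction Ddit4, an inhibitor of mTORC1 that also answers to hypoxia and glucocorticoids, rose from 13.3 ± 0.749 to 38.4 ± 3.66 CPM with IL-1β (1.52 ± 0.06) and to 21.98 ± 0.787 with LPS (0.72 ± 0.07). Cebpb, a transcription factor of inflammation that pairs with ATF4 and CHOP, rose with both (0.86 ± 0.12 and 0.89 ± 0.12).

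A further list held eIF2 kinases, eIF2 subunits, eIF2B, the phosphatase genes Ppp1r15b and Ppp1ca, Nck1 and Impact. Of its 15 genes 7 fell with IL-1β and 0 rose, and with LPS 1 fell and 1 rose. Over all genes 23% fell and 24.7% rose with IL-1β, and 20% fell and 22.5% rose with LPS. Set directly against IL-1β, 5 were higher with LPS and 0 lower, where 11.3% of all genes were higher and 10.6% lower. The number higher ranged from 2 to 5 over the alternatives. It was 3 without Control replicate 1 or 4 or IL-1β replicate 2, and 2 without IL-1β replicate 4 or LPS replicate 3. Against control with LPS 2 were lower without LPS replicate 3 and 2 higher without LPS replicate 1. Eif2s2, a subunit of eIF2, fell with IL-1β (-0.30 ± 0.04), stood at -0.08 ± 0.04 with LPS (adjusted p = 0.0895) and was higher with LPS than with IL-1β by 0.22 ± 0.04. Impact, an inhibitor of the amino acid sensor GCN2, fell with IL-1β (-0.18 ± 0.03) and stood at 0.02 ± 0.03 with LPS (adjusted p = 0.623). The difference of LPS from IL-1β in Impact was 0.20 ± 0.03. Eif2ak2 (PKR), the kinase that senses viral RNA, fell with IL-1β (-0.28 ± 0.08) and stood at -0.04 ± 0.08 with LPS. Eif2b5 fell with both (-0.16 and -0.13), Nck1 rose with LPS (0.18), and Eif2s3x was higher with LPS than with IL-1β (0.09).

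Proteases and relatives of ATF6 and partners of IRE1 went both ways. With IL-1β 4 of 13 were higher and 5 lower, and with LPS 5 were higher and 4 lower. All genes tested were higher in 24.7% and lower in 23% with IL-1β, and in 22.5% and 20% with LPS. Creb3 (-0.45 ± 0.03 and -0.35 ± 0.03), Creb3l1 (-0.21 ± 0.04 and -0.51 ± 0.04) and Creb3l2 (-0.39 ± 0.04 and -0.51 ± 0.04), transcription factors that are cut from the membrane as ATF6 is, fell. Creb3l1, which drives collagen genes in other cells, was lower with LPS than with IL-1β (-0.30 ± 0.04, adjusted p = 8.94e-07). Mbtps1, which encodes the protease that first cuts ATF6, rose with IL-1β (0.09 ± 0.03). Traf2 (0.32 ± 0.04 and 0.57 ± 0.04) and the kinase gene Map3k5 (0.60 ± 0.04 and 0.41 ± 0.04), which pass signals from IRE1 and also from receptors of the TNF family, rose with both.

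Markers of several cell types also differed between the groups, some lower and some higher with the stimuli. Over all genes tested 23% were lower and 24.7% higher with IL-1β, and 20% lower and 22.5% higher with LPS. Theca markers were present in all groups (0 of 10 at 0), although Cyp17a1 and Insl3 averaged 0.537 and 0.229 CPM in controls, against 15.5 and 0.491 with IL-1β and 3.39 and 0.436 with LPS. With IL-1β 8 of 10 were higher and 1 lower, and with LPS 6 and 1. Their summed level was 441 to 478 CPM in controls, 939 to 993 with IL-1β and 859 to 916 with LPS. Smooth muscle and pericyte markers summed to 4718 to 5113 CPM in controls, 1537 to 1741 with IL-1β and 1848 to 2083 with LPS. Of these 8, 6 were lower and 1 higher with IL-1β, and 7 lower and 0 higher with LPS. Des averaged 68.3 CPM in controls, 84.4 with IL-1β and 62.7 with LPS. Macrophage markers summed to 146 to 154, 98.8 to 105 and 93.7 to 101 CPM, with 9 and 10 of 12 lower and 1 and 2 higher. Cd14 averaged 34.2 CPM in controls, 40.6 with IL-1β and 42.1 with LPS, and Emr1 17.6, 5.95 and 21.9. Endothelial markers summed to 178 to 210, 378 to 431 and 264 to 354 CPM, with 10 and 9 of 10 higher. Granulosa markers summed to 1400.1 to 1475, 1715 to 1969 and 1498 to 1693 CPM, with 5 and 4 of 8 higher and 2 and 2 lower. Gja1 (means of 668, 996 and 925 CPM), Serpine2 (395, 196 and 208) and Inha (280, 536 and 369) held the highest levels among them. In controls Cyp19a1, Fshr and Amh averaged only 0.127, 2.97 and 1.61 CPM. Surface epithelium markers summed to 76.9 to 92.4 CPM over all libraries, with 3 of 7 higher and 3 lower with each stimulus. Of B and plasma cell markers, 7 of 8 matched a row and their sum was at most 7.94 CPM, with Cd79b and Mzb1 at 3 and 2 counts over the 4 control libraries and at 0 with LPS. In bulk RNA, fewer cells of a type cannot be told apart from less RNA per cell, and the part of these shifts in the levels of the 31 genes was not tested.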

How the data were processed

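RNA from 12 cultures was sequenced after poly(A) selection with a stranded kit, per the labels' protocols. The authors deposited whole-number read counts, not normalized, in 1 table with a row for each gene symbol. The submitters' processing notes name build Rnor_6.0 and, as tools, DESeq2, SAMtools and TopHat2 2.1.1. The counting program and annotation are not given in the sources used here, so reads shared by similar genes may have been split. No member had a near-identical row in level and profile.

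Counts were tested in R 4.3.3 with edgeR 4.0.16: filterByExpr (17330 of 30045 rows kept), TMM scaling (factors 0.976 to 1.02), 1 model with the 3 groups over 12 libraries, robust quasi-likelihood F-tests (two-sided) and Benjamini-Hochberg adjustment over all genes tested. The scaling factors were 0.976 to 0.983 in controls and 0.997 to 1.02 in treated libraries. Over all genes the median log2 fold change against control was 0.009 with IL-1β and 0.010 with LPS. With library size alone these medians were 0.060 and 0.049. The SE is the absolute log2 fold change over the square root of F. The procedure was also run on simulated counts with few changed genes, random directions and the same dispersion for every gene. That run cannot speak to data where many genes differ, as here, and nothing is drawn from it. No 2 replicates agreed within sampling noise (chi-square per gene from 1.83 to 5.23 within groups).

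The members and lists were chosen with earlier results of these data known. All members are described, and from each further list the 3 genes with the smallest p against control in each stimulus, plus 11 fixed genes, are named. Mogs and Derl2 of the lists are not analysed here. Alternatives were other scalings and filters, DESeq2 1.42.0, limma-voom (limma 3.58.1), fits on 8 libraries, a replicate block, a stricter threshold and each library left out; those for the further lists were added after seeing the data. Promoter sequences are from RefSeq (GRCr8), which is not the build of the counts, and were matched by symbol.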

Additional observations from a re-analysis of the deposited data

Results flagged for a closer look

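In 6 of the 93 sets of 4 libraries (31 genes in 3 groups), 1 library lay apart from the other 3 by more than Dixon's 95% critical value allows. Chance alone gives about 1 in 20 such sets. Dnajb9 was low in IL-1β replicate 4 (25.6 CPM, the others 27.4 to 27.5) and in LPS replicate 1 (28.6 CPM, the others 30.7 to 31.1). Creld2 was high in Control replicate 4 (41.5 CPM, the others 37.5 to 37.9). Eif2ak3 was high in IL-1β replicate 4 (32.4 CPM, the others 30.76 to 30.79). Xbp1 was low in LPS replicate 1 (120.1 CPM, the others 129.8 to 131). Sel1l was low in Control replicate 1 (129.7 CPM, the others 138 to 139).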

How the results depend on the processing

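For 93 values (31 genes in 3 comparisons) under 21 alternatives, 1843 of 1953 results kept their direction and their side of the threshold, 35 lost a call, 34 gained one and 41 changed sign. The numbers lower were 24 with IL-1β (23 or 24 in all alternatives) and 22 with LPS (21 to 24). The number higher with IL-1β was 1, and became 3 with library size alone (Ern1, Xbp1 and Edem1). It was 0 at an adjusted p under 0.01 and 0 to 1 with 1 library left out. The number higher with LPS was 2, and became 1 with DESeq2 size factors, upper-quartile factors, no low-count filter, DESeq2's test, the 8 libraries alone or an adjusted p under 0.01 (1 to 2 with 1 library left out). Between LPS and IL-1β the number higher went from 5 to 8 with no low-count filter (4 to 7 with 1 library left out). The number lower went from 1 to 2 with library size alone and 0 at an adjusted p under 0.01 (0 to 2 with 1 library left out). The cause of these shifts was not tested.

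Replicate numbers are shared by the groups, and the main model did not take them as pairs. The deviations of same-numbered libraries correlated weakly but positively in all 12 pairs (r from 0.0062 to 0.252, above 0.1 in 7, over 10620 genes). Whether same-numbered libraries share an origin was not tested. Not every library correlated best with its own number. Control and IL-1β replicates 2, 3 and 4 each did so with the same-numbered LPS library. Control replicates 1 and 3 did so with the same-numbered IL-1β library. The labels do not say what same-numbered libraries share, so calls with a replicate block are given too. With a replicate block, 24 were lower and 1 higher with IL-1β, 24 lower and 2 higher with LPS, and 9 higher and 2 lower between LPS and IL-1β, where 2176 of 17330 genes were higher and 2080 lower. The calls gained in that contrast were Asns, Atf3, Canx, Herpud1 and Hyou1. Those gained with LPS against control were Atf4 and Atf3, both lower.

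The sign changes were all in values that passed no threshold. With library size alone Dnajb9 (0.000454), P4hb (0.0499) and Derl1 (0.0229) were above 0 with IL-1β, as were P4hb (0.0167) and Xbp1 (0.0200) with LPS. P4hb with IL-1β was 6.31e-06 with limma-voom and -0.0161 to 0.00774 with 1 library left out. Edem1 with LPS was -0.00171 with DESeq2 size factors, -0.00585 with upper-quartile factors, -0.00164 with DESeq2's test and -0.00976 to 0.0257 with 1 library left out. Between LPS and IL-1β Calr was -0.0106 with upper-quartile factors, -0.0105 with library size alone, -0.00178 with the stricter filter, -0.000202 with the replicate block and -0.0325 to 0.0256 with 1 library left out. Pdia3 was -0.0108, -0.0109, -0.00194 and -0.00147 under these 4, -0.000910 with limma-voom and -0.0308 to 0.0414 with 1 library left out. Xbp1 (-0.0303 to 0.0101) and Ppp1r15a (-0.0125 to 0.0347) with LPS, and Sdf2l1 (-0.0209 to 0.0762), Pdia6 (-0.0726 to 0.00396) and Chac1 (-0.102 to 0.0646) between the stimuli, changed sign with 1 library left out. Errors were wider for members with few counts: the SE with IL-1β was 0.09 for Trib3 (129 to 338 counts per library) and 0.03 for Canx (20710 to 32032).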
